A study of Homo sapiens with 7 samples.

Results

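The transcriptome described here is that of RH30 cells that received no drug. These cells are an established line grown from an alveolar rhabdomyosarcoma (RMS), a soft tissue tumor with features of skeletal muscle. RNAseq counts were analysed for 7 RH30 samples of the study, and the 4 whose treatment label reads untreated were chosen, while the other 3 received 5 µM of the Smac mimetic BV6 for 24 h and served only to set the scaling factors. The titles of the 4 samples carry the codes BC11, BC13, BC14 and BC25/27, whose meaning the labels do not give, and the samples are called replicates 1 to 4 in that order. All 7 samples carry the genotype label wt, and the study states that its RH30 line expressed GFP and luciferase. The labels name no passage, and they do not say whether cells grew flat or as spheroids. The spread between the 4 samples is that between samples of 1 cell line, and it holds no spread between tumors.

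Skeletal muscle forms when the transcription factors MYF5 and MYOD1 commit a precursor cell to the myogenic lineage and myogenin (MYOG) and MEF2 factors then switch on the genes of the sarcomere, the contractile unit of the muscle fiber. RMS cells typically make MYOD1, myogenin and desmin, which pathologists use to recognize the tumor, but they keep dividing and do not mature into fibers. Most alveolar RMS, RH30 included, carry a fusion of PAX3 with FOXO1, whose protein binds enhancers of myogenic genes and of receptor genes such as FGFR4. RH30 is also known for extra copies of the chromosome 12 segment that holds CDK4, the kinase that drives cells from G1 into S phase.

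Counts summed to 77220882, 56684781, 59849682 and 62049652 in replicates 1 to 4. These totals exceed the numbers of sequencing reads that the study reports per library, so counts need not be separate reads. Levels are given as CPM, the counts of a gene divided by the TMM-normalized library size in units of 1e6, and the order of different genes is given as CPM per kb of the gene's exons (all isoforms joined). Limits such as 1 or 100 CPM take no account of length. At least 3 counts in every sample, the limit for detection, were found for 24594 of 57189 genes (43.0%), and 3 counts corresponded to 0.0389 to 0.0534 CPM. Genes near that limit cannot be ordered, also where one is named among the lowest of a list. A further 16065 genes had 0 counts in all 4 samples. A mean of at least 1 CPM, taken here as expressed, was reached by 17097 genes, of which 12236 were matched as protein-coding, 748 as long non-coding RNA (lncRNA) and 962 as pseudogenes. A mean of at least 100 CPM was reached by 2259 genes and 1000 CPM by 68. The 100 genes with the highest mean took 17.8% ± 0.536 of the counts (SD, n = 4). Transcripts of the mitochondrial genome took 3.14 to 4.72%, and the 85 genes of ribosomal proteins took 4.26 to 5.06%.

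**Figure D1:**
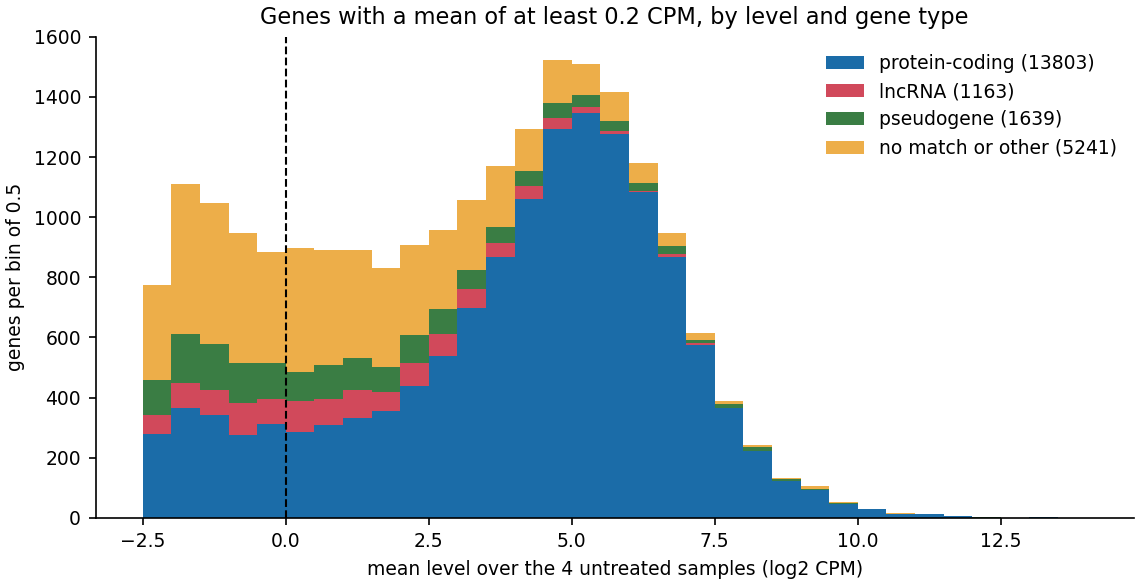
Number of genes (vertical axis) by mean level over the 4 untreated samples in log2 CPM (horizontal axis, bins of 0.5), stacked by gene type, for genes with a mean of at least 0.2 CPM. The dashed line marks 1 CPM. Protein-coding genes peak near 5 on the log2 scale, whereas lncRNA genes and genes without a match to the annotation lie mostly lower.

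The most abundant nuclear transcripts per kb were those of the cytoskeleton, of translation and of glycolysis, joined by 2 genes that stand near each other on chromosome 12, CDK4 and STAC3. Leaving aside ribosomal proteins, TMSB10, an actin-binding thymosin, had the highest level per kb of the 19216 protein-coding genes ranked, at 1874 CPM per kb. GAPDH, an enzyme of glycolysis, followed at 1632 CPM per kb and CDK4 at 1541. EEF1A1, which brings tRNAs to the ribosome, stood at 1091 CPM per kb, and STAC3, a part of the excitation-contraction coupling apparatus of muscle, at 852. The next 10 included ACTB, TUBA1B, EEF1G, TMSB4X, TUBB, UBB, LGALS1, VIM and HSP90AB1, between 766 and 468 CPM per kb. They encode actin, tubulins, a translation factor, a second thymosin, ubiquitin, galectin-1, vimentin and a heat shock protein. EEF1G shares 99.7% of its exonic bases with genes on its own strand, so its level is uncertain. None of these 15 genes differed by more than 1.54-fold between its highest and lowest sample. The order depends on the length used, since EEF1A1 came to 3127 and CDK4 to 2557 CPM per kb of their main transcript alone.

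Among genes that do not code for nuclear proteins, the mitochondrial ribosomal RNA MT-RNR2 had 5424, 4723, 7282 and 4909 CPM in replicates 1 to 4. The mitochondrial tRNAs MT-TS1, MT-TN and MT-TC had means of 117 ± 61.4, 74.1 ± 14.3 and 66.1 ± 12.6 CPM (SD, n = 4). Several pseudogenes ranked as high. EEF1A1P5 and EEF1A1P6, copies of EEF1A1, had means of 4893 ± 667 and 3512 ± 414 CPM. Per kb they stood at 3523 and 2538, above the 1091 CPM per kb of EEF1A1 itself. That order depends on the length used, since EEF1A1 came to 3127 per kb of its main transcript, above EEF1A1P6. MTCO1P12 and MTATP6P1, nuclear copies of mitochondrial genes, had 3091 ± 542 and 811 ± 158 CPM, and RPL39P3 had 159 ± 21.8 CPM. Reads of near-identical copies cannot be assigned to 1 of them with certainty, so these values and those of the parent genes are uncertain. MIR3654, with 72.8 ± 5.57 CPM, is a short hairpin gene, and reads of this library type come from the longer RNA that covers it.

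The segment of chromosome 12 around CDK4 held the highest run of gene levels per kb among the windows examined. CDK4 (GENCODE 44, GRCh38, chromosome 12, 57747727 to 57756013, minus strand) had 4875, 5338, 4488 and 4374 CPM in replicates 1 to 4, 4769 ± 436 CPM on average. All 4 samples were high and lay within 1.22-fold of each other. Medians over 15 consecutive protein-coding genes were computed along each chromosome. The window centred on CDK4 had a median of 5.38 on the log2 scale of CPM per kb, against a median of 1.08 over all 18894 windows. None was higher, and 4 windows, this one included, shared that value. Of its 15 genes, 13 had a mean of at least 100 CPM. The 29 highest windows were all centred on genes of this region, from SHMT2 to ATP23. Outside it, the next was the window centred on LPAR5, also on chromosome 12, with 4.50.

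The 29 protein-coding genes from SHMT2 to ATP23 start within 676 kb. Of these, 21 ranked in the top 10% of protein-coding genes per kb and 7 exceeded 1000 CPM. Together they took 1.995% ± 0.0577 of the normalized counts (SD, n = 4). OS9, a lectin of the degradation of misfolded proteins in the endoplasmic reticulum, had 2786, 2861, 3041 and 2741 CPM in replicates 1 to 4. CTDSP2, a phosphatase, had 2253, 1957, 2495 and 2135 CPM. TSPAN31, which overlaps CDK4 on the other strand, had 2165, 2389, 2169 and 2077 CPM. SHMT2, the mitochondrial serine hydroxymethyltransferase of one-carbon metabolism, had 2044 ± 96.0 CPM, STAC3 1781 ± 306 CPM and MARS, the methionyl-tRNA synthetase, 1057 ± 74.1 CPM. MARCH9, METTL1 and TSFM reached 462 ± 56.9, 174 ± 42.2 and 399 ± 37.9 CPM.

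Not every gene of the segment was high. KIF5A, a kinesin of neurons, stood at 0.197 ± 0.125 CPM between highly expressed neighbors, and NDUFA4L2, INHBC and ARHGAP9 had 2.003 ± 0.316, 1.42 ± 0.285 and 10.7 ± 2.91 CPM. GLI1, a transcription factor of hedgehog signaling, had 157, 79.8, 142 and 125 CPM, and DDIT3, a transcription factor of the stress response, 87.8, 59.1, 126 and 94.3. CYP27B1, which activates vitamin D, had 131, 184, 98.0 and 70.4 CPM, with replicates 1 and 2 above replicates 3 and 4. AGAP2 and AVIL had 252 ± 49.95 and 142 ± 6.398 CPM, and the other 10, such as MBD6 and PIP4K2C, lay between 46.0 ± 7.34 (R3HDM2) and 349 ± 54.8 CPM (MBD6). On the side toward the centromere, LRP1, an endocytic receptor, had 1189.9 ± 129.9 CPM while its neighbor STAT6 had 7.79 ± 0.808 CPM. On the other side, the next protein-coding gene was LRIG3, 1164 kb from the start of CDK4, with 13.1 ± 1.38 CPM, followed by SLC16A7 with 0.0464 ± 0.0148 CPM. MDM2, farther along the same arm and often amplified with CDK4 in sarcomas, had 69.4, 72.0, 73.2 and 82.9 CPM. It ranked 4320 per kb among protein-coding genes, where CDK4 ranked 3. Counts of RNA cannot tell more copies of a gene from more RNA per copy. CDK4 shares 44.2% of its exonic bases with genes on the opposite strand, chiefly TSPAN31, and the handling of strand in the counting is not given in the sources used here, so the split between the 2 genes is uncertain. TSFM shares 67.3% of its exonic bases with genes on its own strand. How reads on several genes were counted is not given either, so its level is uncertain too.

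**Figure D2:**
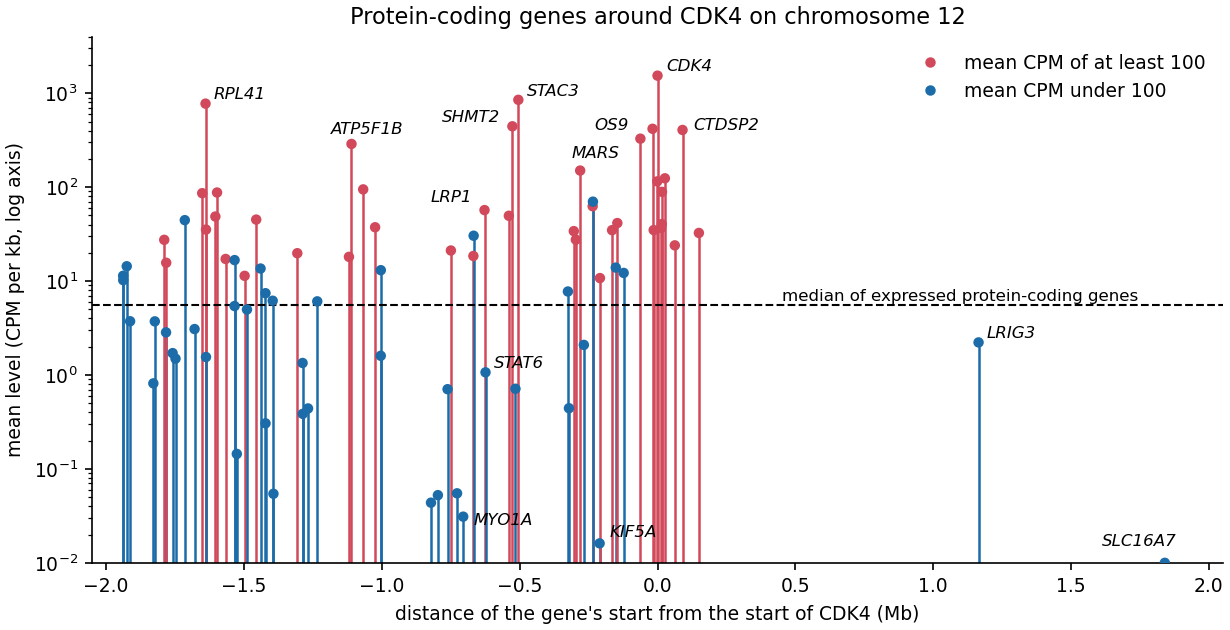
Mean level in the 4 untreated samples (CPM per kb, log axis) of the 84 protein-coding genes that start within 2 Mb of CDK4, by distance of the gene's start from that of CDK4 in Mb. Red marks genes with a mean of at least 100 CPM, and the dashed line is the median of expressed protein-coding genes, 5.60 CPM per kb. From SHMT2 to ATP23 most genes lie far above that line, with exceptions such as KIF5A, and LRIG3 and SLC16A7 beyond lie below it.

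The genes that mark the tumor type were expressed in all 4 samples. MYOD1 (chromosome 11, 17719571 to 17722136, plus strand) had 474, 297, 293 and 311 CPM in replicates 1 to 4, with replicate 1 above the other three, which lay close together. MYOG (chromosome 1, 203083129 to 203086012, minus strand) had 155, 78.8, 158 and 209 CPM. It was lowest in replicate 2 and highest in replicate 4, 2.66-fold apart, and the only one of the 6 markers with a range of over 2-fold. Over all genes with at least 1 CPM on average and 10 counts in every sample, 9.04% had a range of at least 2-fold. DES (chromosome 2, 219418377 to 219426735, plus strand), which encodes desmin, the intermediate filament of muscle, had 829, 607, 771 and 865 CPM, again lowest in replicate 2. FGFR4 (chromosome 5, 177086905 to 177098144, plus strand), a receptor tyrosine kinase, had 933, 578, 526 and 547 CPM and was highest in replicate 1. IGF2 (chromosome 11, 2129112 to 2158391, minus strand), the insulin-like growth factor that many RMS make, had 186, 117, 176 and 109.8 CPM, with replicates 1 and 3 above replicates 2 and 4. Per kb the order was CDK4, then DES with 309 CPM per kb, MYOD1 with 191, FGFR4 with 134, MYOG with 99.8 and IGF2 with 20.6. The sample ranges of DES and MYOD1, of MYOD1 and FGFR4, and of FGFR4 and MYOG overlapped on this scale. CDK4 at the top and IGF2 at the bottom overlapped no other marker. IGF2 shares 43.2% of its exonic bases with genes on its own strand, so its level is uncertain. MYOD1 and FGFR4 have a GC content of 65.6% and 63.4%, and genes of high GC content tended to be higher in replicate 1, as described below. The mean log2 CPM of the 6 markers was 9.25, 8.70, 8.95 and 8.95 in replicates 1 to 4. It was 8.97, 8.66, 9.11 and 9.11 once samples were centred on GC content. The part of GC content in single markers was not tested.

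**Figure D3:**
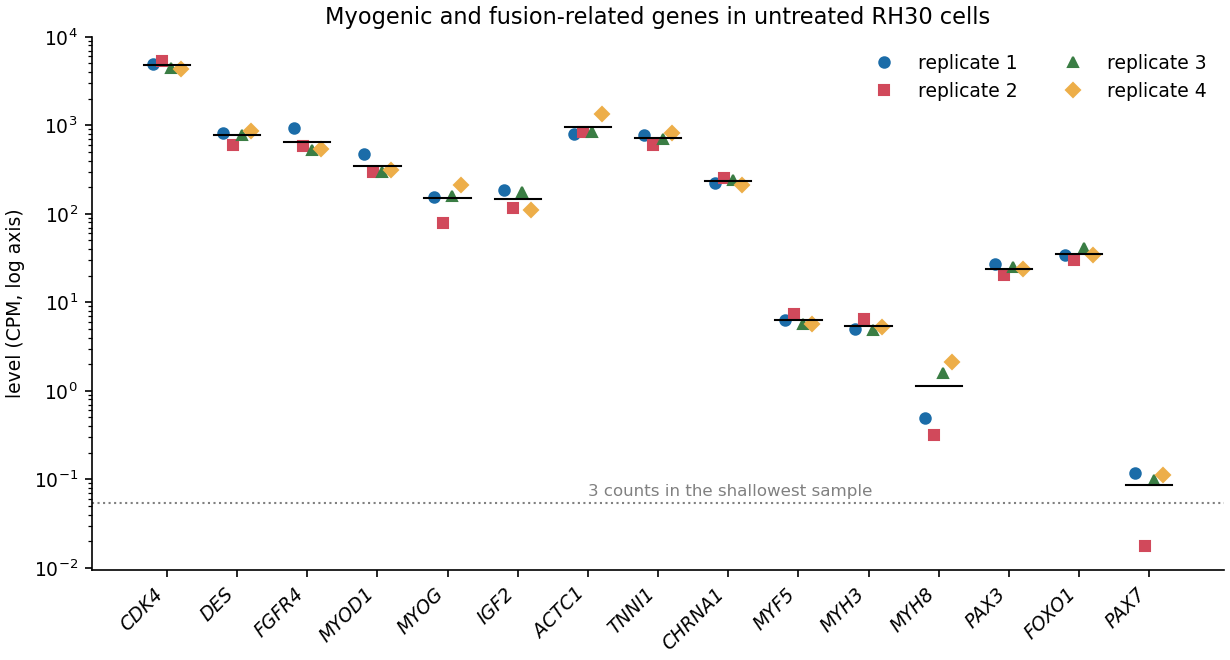
Level in CPM (log axis) of the tumor markers, of further muscle genes and of the fusion-related genes PAX3, FOXO1 and PAX7 in the 4 untreated samples, 1 symbol per replicate, with a line at the mean. The dotted line is the level of 3 counts in the shallowest sample. CDK4 lies highest, MYOG and MYH8 are lowest in replicate 2, and PAX7 lies near the limit of detection.

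Of 28 myogenic regulators, 24 were detected and 23 reached 1 CPM. Per kb MYOD1 and MYOG were the highest of them and EYA2, at 0.0426 CPM per kb, the lowest of those detected. MYF5, the other commitment factor, had 6.28, 7.46, 5.74 and 5.66 CPM in replicates 1 to 4, which came to 4.08 CPM per kb and was far below the 191 of MYOD1. MYF6, the factor of mature fibers, had 4, 1, 5 and 2 counts and so lay around the limit of detection. Regulators that act with or before MYOD1 were present at moderate levels. TCF12 and TCF3, the E proteins with which it pairs, had 294 ± 27.9 and 120.0 ± 35.0 CPM (mean ± SD, n = 4, as in all values of this form). SIX4 and EYA1, which act upstream of the myogenic factors, had 97.7 ± 17.0 and 34.4 ± 7.41 CPM. MEF2A, MEF2C and MEF2D, which act beside myogenin, had 98.6 ± 15.7, 78.1 ± 22.3 and 63.2 ± 6.51 CPM.

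Repressors of the myogenic program were expressed too. MSC (musculin) had 59.9 ± 10.8 CPM and SNAI2, which keeps MYOD1 from its late targets, 136 ± 25.7 CPM. The ID proteins bind E proteins and so take them from MYOD1. ID1 had 40.5, 66.6, 34.7 and 17.6 CPM and ID3 had 38.7, 63.2, 32.2 and 20.6 CPM. Both were highest in replicate 2 and lowest in replicate 4. ID2 had 29.4 ± 6.13 CPM, while ID4 and TWIST1 lay around the limit of detection with means of 0.0235 and 0.0911 CPM.

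The sarcomere was represented by some of its genes only. Of 51 genes of the sarcomere and of muscle function, 47 were detected, 31 reached 1 CPM and 11 reached 100 CPM. ACTC1, the cardiac actin that embryonic skeletal muscle also uses, was the highest per kb with 337 CPM per kb. It had 804, 841, 851 and 1357 CPM in replicates 1 to 4, with replicate 4 above the others. TNNI1, the slow troponin I, had 779, 597, 700.4 and 809 CPM. TNNT1, the slow troponin T, had 329, 277, 323 and 349 CPM, and TNNT2, its cardiac form, 292 ± 33.5 CPM. The tropomyosins TPM1, TPM2 and TPM3 had 125 ± 25.1, 247 ± 27.0 and 201 ± 25.0 CPM. Of the giant proteins, nebulin (NEB) had 391, 284, 507 and 332 CPM and titin (TTN) 131, 62.9, 255 and 154 CPM, both lowest in replicate 2 and highest in replicate 3. RYR1, the channel that releases calcium, had 189.6, 117, 175 and 109 CPM, and STAC3, which couples it to the surface membrane, stood in the chromosome 12 segment described above.

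Other members of the list lay under 1 CPM. ACTA1, the actin of adult skeletal muscle, had 0.584, 0.356, 0.265 and 0.485 CPM, or 0.178 CPM per kb where ACTC1 had 337. CKM, the muscle creatine kinase, had 0.172 ± 0.0634 CPM and MB (myoglobin) 0.0955 ± 0.0328 CPM. The adult myosin heavy chains MYH1, MYH2 and MYH4 had 0.258 ± 0.110, 0.314 ± 0.0978 and 0.237 ± 0.0996 CPM. MYH3, the embryonic form, exceeded that level with 5.01, 6.45, 4.91 and 5.29 CPM, as did MYBPC2, the myosin-binding protein of fast fibers, with 23.4 ± 5.62 CPM. MYH8, the perinatal form, had 0.493, 0.321, 1.58 and 2.10 CPM, with replicates 1 and 2 below replicates 3 and 4. MYMK and MYMX, the membrane proteins that fuse myoblasts, had 4.42 ± 1.35 and 46.6 ± 14.3 CPM, and DMD (dystrophin) 37.6 ± 2.96 CPM. MYBPC1, a myosin-binding protein, was among the lowest of the detected genes with 6, 5, 7 and 4 counts.

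All 10 genes of the muscle acetylcholine receptor and its anchoring complex exceeded 1 CPM. CHRNA1, which encodes the ligand-binding subunit, had 225, 257, 243 and 211 CPM in replicates 1 to 4. CHRND, the delta subunit, had 250.4, 188, 269 and 255 CPM, and CHRNB1, the beta subunit, 163, 203, 151 and 135 CPM. CHRNG, the fetal form, had 29.9, 14.4, 31.3 and 23.7 CPM. CHRNE, the adult form that replaces it, had 3.62, 2.48, 3.12 and 2.81 CPM, and per kb the values were 5.69 and 0.854. Genes on the opposite strand share 66.9% of the exonic bases of CHRNG and 59.6% of those of CHRNE, so both values are uncertain. RAPSN (rapsyn), which clusters the receptor, was the highest of the list per kb with 83.7 CPM per kb and CHRNE the lowest. MUSK, the kinase that starts clustering, had 30.3 ± 5.57 CPM, its activator DOK7 12.1 ± 5.30 CPM and its co-receptor LRP4 47.5 ± 6.19 CPM. AGRN (agrin), the signal from the nerve, had 303, 169, 112 and 130.5 CPM, highest in replicate 1.

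Counts per gene do not tell reads of the fusion transcript from those of the normal alleles of its partners. PAX3 had 27.4, 20.1, 24.8 and 23.8 CPM in replicates 1 to 4 and FOXO1 34.3, 29.9, 41.3 and 33.9 CPM. PAX7, the partner in the other fusion of alveolar RMS, had 9, 1, 6 and 7 counts, near the limit of detection. Of 21 genes known as targets of PAX3-FOXO1, 20 were detected and 16 reached 10 CPM. Per kb MYOD1 and FGFR4 were the highest and CDH3, a cadherin, the lowest of those detected with 0.0183 CPM per kb. SKP2, a subunit of the ubiquitin ligase that removes the CDK inhibitor p27, had 543, 535, 539.7 and 566 CPM and was nearly even. MET, the receptor of hepatocyte growth factor, had 231 ± 23 CPM. NOS1, the neuronal nitric oxide synthase, had 193, 81.9, 223 and 139 CPM, less in replicate 2 than in the others. The same sample was lowest in MYCN, a transcription factor of the MYC family, with 29.4, 13.9, 26.4 and 22.3 CPM, and in ALK, a receptor kinase, with 20.5, 11.9, 20.4 and 13.1 CPM. OLIG2, a transcription factor better known from the brain, had 9.31, 4.52, 8.89 and 8.94 CPM, and POU4F1, one of sensory neurons, 55.2, 41.1, 58.6 and 32.1 CPM. CXCR4, a chemokine receptor, had 49.6, 47.3, 66.9 and 51.4 CPM. TFAP2B, used with CDH3 as a marker of fusion-positive tumors, had a mean of only 0.0545 CPM. Of the 19 targets with at least 1 CPM on average and 10 counts in every sample, 13 were lowest in replicate 2, where 28.4% of all 17096 such genes were lowest.

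Among 34 receptors of growth factors, most of them receptor tyrosine kinases, 22 reached 1 CPM. FGFR4 was the highest per kb, AXL, the receptor of GAS6, followed with 82.1 CPM per kb, and FLT1 was among the lowest of those detected with 0.00810. AXL had 388, 531, 324 and 442 CPM in replicates 1 to 4, highest in replicate 2 and lowest in replicate 3. Of the other FGF receptors FGFR1 had 60.1 ± 4.91 CPM, FGFR3 2.86 ± 0.785 CPM and FGFR2 only 7, 0, 11 and 6 counts. EGFR and ERBB2 had 82.9 ± 4.55 and 51.7 ± 4.26 CPM. ERBB3, which pairs with them, had 33.5, 18.0, 47.0 and 46.1 CPM and was lowest in replicate 2. EPHA2, an ephrin receptor, had 94.98, 117, 51.4 and 58.2 CPM, with replicates 1 and 2 above replicates 3 and 4. The collagen receptors DDR1 and DDR2 had 84.3 ± 12.6 and 84.7 ± 10.4 CPM. PDGFRB had 14.9 ± 2.52 CPM, whereas PDGFRA and KIT stayed at 0.145 ± 0.0441 and 0.144 ± 0.0392 CPM.

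The IGF system was centred on IGF2. Of its 15 genes, 12 were detected, IGF2 was the highest per kb, and H19, the lncRNA next to IGF2, was the lowest of those detected with 0.287 ± 0.110 CPM. IGF1, the other ligand, had 4, 0, 2 and 5 counts. IGF1R, the receptor through which both signal, had 91.5, 88.1, 88.2 and 94.3 CPM in replicates 1 to 4, a CV (the SD as a share of the mean) of 3.27%. IGF2R, which clears IGF2 and has no kinase, had 270.1 ± 19.5 CPM. IRS1, the adaptor of IGF1R, had 161 ± 15.4 CPM. The RNA-binding proteins IGF2BP1, IGF2BP2 and IGF2BP3 had 148 ± 16.6, 105 ± 5.88 and 87.9 ± 5.43 CPM. Of the binding proteins of the ligand, IGFBP5, the one typical of muscle, had 17.8, 5.67, 25.7 and 34.5 CPM and was lowest in replicate 2, like MYOG, and IGFBP3 had 6, 2, 0 and 2 counts.

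Genes of proliferation were expressed in all 4 samples. Of 26 cell cycle regulators 25 were detected, CDK4 was by far the highest per kb and CDKN2B the lowest of those detected with 2.52 CPM per kb. CDK6, which acts in the same step as CDK4, had 656, 815, 685 and 724 CPM in replicates 1 to 4 and reached 58.8 CPM per kb. The D cyclins that activate both, CCND1, CCND2 and CCND3, had 248 ± 70.9, 340.4 ± 45.6 and 107 ± 19.2 CPM. RB1, the substrate, had 99.1 ± 6.68 CPM and E2F1, the factor that it holds back, 182 ± 22.2 CPM. Inhibitors of CDKs were detected as well. CDKN2A, whose p16 product blocks CDK4, had 48.3, 36.4, 37.2 and 36.0 CPM. CDKN1A (p21) had 164, 103, 137 and 167 CPM and CDKN1B (p27) 37.4, 26.4, 39.8 and 52.1 CPM, both lowest in replicate 2 and highest in replicate 4. CDKN1C (p57) lay at the limit with 2, 2, 4 and 4 counts. MYC had 125, 133, 117 and 97.7 CPM.

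All 30 genes of S phase and replication and all 30 genes of mitosis exceeded 10 CPM. In S phase, MCM7, a subunit of the replicative helicase, was the highest per kb with 112 CPM per kb and GINS3 the lowest with 4.86. In mitosis, TPX2, a spindle factor, was the highest with 158 CPM per kb and NDC80, a part of the kinetochore, the lowest with 12.1. TPX2 had 559, 565, 571 and 585 CPM in replicates 1 to 4. TOP2A, the topoisomerase that untangles sister chromatids, had 761, 775, 896 and 959 CPM, and MKI67 (Ki-67) 751, 779.7, 714 and 750.1 CPM. The 4 samples of TPX2 and MKI67 lay within 1.05-fold and 1.09-fold.

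BV6, used elsewhere in the study, mimics Smac, a protein that binds inhibitors of apoptosis (IAPs), and the baseline levels of its targets and of the death pathways around them follow. BIRC5 (survivin), which is also a mitotic gene, was the highest of the IAPs per kb with 46.8 CPM per kb and had 174, 179, 177 and 184 CPM in replicates 1 to 4. BIRC2 (cIAP1) had 52.0, 76.7, 68.4 and 67.5 CPM and XIAP 33.4, 39.4, 38.2 and 37.2 CPM, in both lowest in replicate 1. BIRC3 (cIAP2) had 1.64, 4.74, 1.26 and 2.12 CPM, with replicate 2 highest. Per kb BIRC3, at 0.326, was the lowest of the list among detected genes, below BIRC2 at 14.6 and XIAP at 3.89. BIRC6, a very large IAP, had 157 ± 13.6 CPM, and BIRC7 had 8, 0, 5 and 5 counts. DIABLO, the gene of Smac itself, had 40.2, 40.4, 38.0 and 41.8 CPM, and HTRA2, another antagonist of IAPs, 63.1 ± 8.39 CPM.

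Of 16 death receptors, adaptors and ligands 6 reached 1 CPM. FADD, the adaptor that recruits caspase-8, was the highest per kb with 23.01 CPM per kb and FAS, a receptor, the lowest of those detected with 0.00971. FADD shares 59.2% of its exonic bases with genes on the opposite strand, so its level is uncertain. Among receptors, TNFRSF10B (DR5), which binds TRAIL, had 110.3, 120.1, 95.9 and 109.9 CPM in replicates 1 to 4. TNFRSF1A, the main receptor of TNF, had 68.6, 60.3, 59.3 and 63.7 CPM. In contrast TNFRSF10A (DR4), the other death receptor of TRAIL, had 0.169, 0.0713, 0.133 and 0.307 CPM. The ligand genes TNF, FASLG and TNFSF10 (TRAIL) had means of 0.0959, 0.0601 and 0.0614 CPM, close to the level of 3 counts.

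Of 17 genes of caspases and necroptosis 12 reached 1 CPM. CYCS (cytochrome c) was the highest per kb with 33.6 CPM per kb and RIPK3, the kinase of necroptosis, the lowest of those detected with 7, 4, 6 and 16 counts. CASP8, the initiator caspase of death receptors, had 15.5, 20.3, 17.6 and 17.2 CPM. CFLAR, which restrains it, had 8.63, 7.86, 10.6 and 9.35 CPM. CASP9, the initiator of the mitochondrial pathway, had 20.6 ± 2.95 CPM and its platform APAF1 46.7 ± 2.72 CPM. RIPK1 had 17.0 ± 1.26 CPM and MLKL, which breaches the membrane in necroptosis, 2.053 ± 0.228 CPM. In the BCL2 family, of which 13 of 16 were detected, the pro-apoptotic BOK was the highest per kb with 39.2 CPM per kb, followed by the anti-apoptotic MCL1 with 33.2, and BCL2 itself was the lowest with 0.459. BCL2 had 6.02, 5.95, 5.48 and 5.69 CPM and BCL2L1 (BCL-xL) 139 ± 10.3 CPM. The effectors BAX and BAK1 had 60.4 ± 5.22 and 28.4 ± 3.26 CPM. Among the BH3-only genes, which start the pathway, BCL2L11 (BIM) and PMAIP1 (NOXA) had 52.8 ± 7.16 and 21.8 ± 3.96 CPM. BMF, another one, had 17.1, 6.52, 30.3 and 21.5 CPM and was lowest in replicate 2.

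All 23 genes of the NF-κB pathway exceeded 1 CPM, and 21 exceeded 10. Per kb NFKB2 was the highest with 13.9 CPM per kb and REL the lowest with 2.15. The subunits RELA, NFKB1, NFKB2, REL and RELB had 56.5 ± 7.90, 46.4 ± 8.997, 77.4 ± 16.1, 36.8 ± 2.53 and 9.69 ± 4.29 CPM. MAP3K14 (NIK), the kinase of the non-canonical branch that cIAPs mark for degradation, had 41.9, 52.3, 26.5 and 32.6 CPM in replicates 1 to 4. TRAF2 and TRAF3, which join NIK to cIAPs, had 34.6 ± 7.86 and 63.8 ± 16.8 CPM. NFKBIA, an inhibitor that NF-κB induces, had 19.7, 34.9, 18.4 and 22.4 CPM, and TNFAIP3 (A20), another one, 43.1, 48.7, 42.2 and 37.3 CPM. MAP3K14, NFKBIA and TNFAIP3 were all highest in replicate 2. Of all 23 genes, 8 were highest in replicate 2 and 11 in replicate 1, where the shares over all genes were 27.3% and 26.9%.

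Molecules that NK cells and T cells read were expressed unevenly. Of 18 genes of HLA class I and antigen processing all were detected, CALR (calreticulin) the highest per kb with 264 CPM per kb and HLA-F the lowest with 0.209. HLA-B had 159, 137, 144 and 201 CPM in replicates 1 to 4. HLA-C had 95.6, 79.1, 82.6 and 103 CPM. B2M, their light chain, had 418, 472, 535 and 566 CPM and was highest in replicate 4, as HLA-B and HLA-C were. HLA-E, a ligand of the inhibitory NK receptor NKG2A, had 48.6 ± 3.903 CPM. These HLA genes are alike and vary between people, so their reads may be lost or shared, and their levels are uncertain. TAP1 and TAP2, which carry peptides to HLA, had 30.0 ± 4.44 and 87.0 ± 7.24 CPM, and PSMB8 and PSMB9 of the immunoproteasome 9.64 ± 1.65 and 8.92 ± 1.94 CPM.

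Of 19 NK cell ligands 10 reached 1 CPM, with BAG6 the highest per kb (37.6 CPM per kb) and ICAM2 among the lowest of those detected (0.0368). MICA, a ligand of the activating receptor NKG2D, had 6.52, 6.24, 5.59 and 6.05 CPM and MICB, its paralog, 0.260, 0.0891, 0.199 and 0.453 CPM. ULBP1, ULBP2 and ULBP3, ligands of the same receptor, had 3.69 ± 0.625, 1.57 ± 0.484 and 2.07 ± 0.430 CPM. The ligands of DNAM-1, another activating receptor, stood higher, PVR with 53.3, 54.6, 47.8 and 54.7 CPM and NECTIN2 with 67.4, 55.6, 49.9 and 57.0 CPM, or 5.04 and 15.4 CPM per kb against 1.58 for MICA. NCR3LG1 (B7-H6), the ligand of NKp30, had 13.6 ± 1.497 CPM and ICAM1, an adhesion molecule, a mean of 0.162 CPM. Of 13 checkpoint ligands 6 reached 1 CPM, and CD276 (B7-H3) was the highest per kb with 32.0 CPM per kb and CD24 the lowest of those detected with 0.0425. CD276 had 240.2, 171, 143 and 147 CPM, highest in replicate 1. CD274 (PD-L1) had 4.43, 5.50, 3.88 and 7.58 CPM and PDCD1LG2 (PD-L2) 12.1, 9.53, 15.9 and 17.1 CPM. CD47, which holds off macrophages, had 60.03 ± 7.44 CPM.

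Interferon-stimulated genes were expressed in part. Of 40, 24 reached 1 CPM and 14 reached 10. IFITM2 was the highest per kb with 21.7 CPM per kb and MX1 among the lowest of those detected with 0.00854. IFI44 had 33.2, 31.8, 67.1 and 44.1 CPM, with replicate 3 highest, and IFITM3, which blocks viral entry, 75.7, 51.1, 64.9 and 53.8 CPM. OAS3, USP18 and HERC5 had 59.2 ± 7.27, 42.8 ± 7.97 and 40.6 ± 3.896 CPM. In contrast, MX1, OAS2, IFI44L, IFIH1 and RSAD2 all lay under 1 CPM, with means of 0.154, 0.225, 0.310, 0.213 and 0.118.

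Genes of glycolysis and several chaperones stood high. Of 33 genes of glycolysis and hypoxia GAPDH was the highest per kb and SLC16A3, a lactate exporter, the lowest of those detected with 0.211 CPM per kb. PKM, the pyruvate kinase, had 3175, 3655, 2554 and 2915 CPM and ENO1, the enolase, 1843, 2114, 1511 and 1813 CPM, in both highest in replicate 2 and lowest in replicate 3. TPI1, LDHA and ALDOA had 762 ± 75.9, 753 ± 102 and 693 ± 85.1 CPM. CA9, which hypoxia induces, had only 0, 2, 7 and 7 counts and VEGFA 29.4 ± 2.17 CPM. Of 25 genes of cholesterol synthesis 24 were detected, from FDPS with 48.5 CPM per kb down to INSIG1, a brake on the pathway, with 0.179.

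Of 25 genes of the stress response of the endoplasmic reticulum and of amino acid shortage, HSPA5 (BiP) was the highest per kb with 133 CPM per kb and NUPR1 the lowest with 0.0194. HSPA5 had 881, 864, 856 and 885 CPM in replicates 1 to 4, an even level. Of 14 heat shock genes HSP90AB1 was the highest per kb with 468 CPM per kb and CRYAB, abundant in mature muscle, the lowest with 0.0422. HSPA8, a constitutive chaperone, had 1039.8, 1501, 819.7 and 911 CPM, highest in replicate 2, and HSPB1, a small heat shock protein, 303, 168, 164 and 204 CPM, highest in replicate 1.

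Collagens were expressed selectively. Of 29 genes 8 exceeded 100 CPM, COL5A1, COL4A2, COL27A1, COL4A1, COL14A1, COL3A1, COL6A2 and COL5A2. COL6A2, of the collagen that surrounds muscle fibers, was the highest per kb with 34.6 CPM per kb and COL4A5 among the lowest of those detected with 0.00876. COL5A1 had 375 ± 73.3 CPM and COL3A1 224 ± 39.1 CPM. COL27A1, a collagen of cartilage, had 360.4, 402, 239 and 181 CPM, with replicates 1 and 2 above replicates 3 and 4. COL1A1, the main chain of type I collagen, had 14.5, 11.1, 9.61 and 10.8 CPM, and COL1A2, its partner, 1.00, 0.730, 0.697 and 0.760 CPM.

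Most markers of other cell types lay below 1 CPM. Of 18 leukocyte markers 2 exceeded 1 CPM, LAPTM5, a lysosomal protein, with 102, 105, 90.3 and 89.0 CPM in replicates 1 to 4 and NKG7, of cytotoxic granules, with 11.1, 7.55, 9.76 and 10.8 CPM, and the summed level ranged from 102 to 118 CPM. PTPRC (CD45) had 58, 16, 15 and 14 counts, 0.378 CPM on average, and KLRD1, among the lowest per kb of those detected, 10, 6, 7 and 6 counts. Of 10 epithelial markers CLDN4 (14.8 ± 5.78 CPM) and KRT7 (3.901 ± 1.05 CPM) exceeded 1 CPM, CDH1 (E-cadherin), among the lowest of those detected, had 10, 11, 9 and 15 counts, EPCAM 0, 4, 8 and 5 counts and the sum was 13.9 to 27.7 CPM. Of 8 endothelial markers PECAM1 (59.3 ± 8.35 CPM) and CLDN5 (2.61 ± 0.766 CPM) did, while CDH5 (VE-cadherin), among the lowest of those detected, had 6, 5, 8 and 16 counts and the sum was 52.5 to 74.2 CPM. So in each of these lists some markers exceeded 1 CPM while others lay below it. Of 9 fibroblast markers COL3A1, THY1 (96.3 ± 4.38 CPM), COL1A1 and LUM exceeded 1 CPM, PDGFRA was among the lowest of those detected, DCN (decorin) had 12, 4, 0 and 4 counts and the sum was 277 to 371 CPM. Of 14 neural markers TUBB3 (155, 99.6, 85.5 and 96.9 CPM), RBFOX3 (3.69 ± 2.02 CPM) and DCX (1.58 ± 0.567 CPM) did, while ELAVL3 had 5, 3, 6 and 7 counts and SNAP25 2, 0, 4 and 3 counts, with sums of 93.4 to 165 CPM. None of 7 markers of adipocytes and liver did, PLIN1 and APOB were detected with 0.0787 ± 0.0104 and 0.382 ± 0.320 CPM, and their sum stayed between 0.356 and 1.12 CPM. None of the low markers named here was at 0 in every sample.

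Promoters of expressed genes were richer in CpG than those of silent genes. Sequences from RefSeq (GRCh38.p14, 250 bases before to 50 after the start of transcription) were matched to 15213 protein-coding genes. A ratio of observed to chance CpG of at least 0.6, the usual sign of a CpG island, was found in 82.6% of 10034 expressed genes and in 20.9% of 784 genes with under 3 counts in every sample. Among expressed genes the share was 66.5% between 1 and 10 CPM, 86.4% between 10 and 100 CPM and 88.3% above. Of the 34 detected sarcomere and muscle genes with a promoter sequence, only 26.5% were CpG-rich. TATAAA on either strand was in 32.4% of them, against 9.71% of all promoters. Genes with under 3 counts in every sample came near these muscle genes, with 20.9% CpG-rich and 26.3% with TATAAA. The E-box CAGCTG, the letters that MYOD1 and myogenin prefer, was in 38.2% of these muscle promoters and in 17.6% of all. CCAAT was found in 38.2% and 36.5%, and GGGCGG, the letters of SP1, in 47.1% and 59.1%. A match is a run of letters and not a shown binding site.

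The 250 bases upstream of the start are printed for the highest of the cell cycle genes, for the tumor marker with the widest range and for the highest gene of the sarcomere list, 5′ to 3′ on the strand of the gene. Capitals mark TATAAA and every match to CANNTG, the general E-box, which reads as CANNTG on both strands and includes CAGCTG and CACGTG. The positions are chr12:57752311-57752560 for CDK4, chr1:203086013-203086262 for MYOG and chr15:34795550-34795799 for ACTC1, all on the minus strand of GRCh38.p14.
CDK4: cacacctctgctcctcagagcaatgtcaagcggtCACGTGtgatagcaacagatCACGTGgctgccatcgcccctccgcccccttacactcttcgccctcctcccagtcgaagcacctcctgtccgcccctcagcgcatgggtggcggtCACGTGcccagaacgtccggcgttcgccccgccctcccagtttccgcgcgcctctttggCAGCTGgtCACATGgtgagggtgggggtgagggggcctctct
MYOG: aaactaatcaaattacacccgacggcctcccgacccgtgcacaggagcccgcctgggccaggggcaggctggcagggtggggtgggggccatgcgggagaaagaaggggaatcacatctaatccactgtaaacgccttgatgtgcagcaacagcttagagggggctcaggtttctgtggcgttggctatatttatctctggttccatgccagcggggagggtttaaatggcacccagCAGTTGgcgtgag
ACTC1: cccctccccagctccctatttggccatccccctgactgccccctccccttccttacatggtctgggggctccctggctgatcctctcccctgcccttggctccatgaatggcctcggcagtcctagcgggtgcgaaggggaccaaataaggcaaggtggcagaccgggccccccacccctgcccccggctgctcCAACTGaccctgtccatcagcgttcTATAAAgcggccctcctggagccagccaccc

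The stretch upstream of CDK4 held 5 E-boxes, 3 of them CACGTG, the letters that MYC and MAX bind, and no TATAAA. It lies inside the GENCODE 44 gene given above, since the start used by RefSeq is downstream of the longest isoform. Over the whole 300 bases, 3 or more CACGTG were found in 23 of the 15213 promoters (0.151%), and at least 1 in 8.84%. MYOG had 1 E-box near its start, and CANNTG of any kind was in 64.4% of all promoters. ACTC1 had 1 E-box and 1 TATAAA close to the start. The CpG ratio of the printed bases was 0.728 for CDK4, 0.488 for MYOG and 0.280 for ACTC1.

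The spread between the 4 samples was several times that of counting. Over the 17097 expressed genes the median CV was 13.1%, and 10% of genes lay below 5.91% and 10% above 29.8%. Counting error alone, taken from the counts as if each were a separate read, would give a median of 2.77%. The totals exceed the reads that the study reports per library, so this counting error is likely too low. At 100 CPM or more the median CV was 10.1%, where counting error would give 0.976%. Of 17096 genes with at least 1 CPM on average and 10 counts in every sample, 1546 (9.04%) had a highest sample at least 2-fold above the lowest, and 293 (1.71%) at least 3-fold. Replicate 1 was the highest sample in 645 of the 1546 and replicate 2 the lowest in 582. Over all 17096 genes, replicate 1 was highest in 26.9% and replicate 2 lowest in 28.4%. Over 3 samples, without replicate 2, the count of genes with a 2-fold range was 879. Replicates 3 and 4 were the most alike pair, with 159 genes at least 2-fold apart, where replicates 2 and 4 had 675. The first component of the spread held 55.9% of it and set replicates 1 and 2 against 3 and 4.

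The most constant genes at 10 CPM or more were genes of moderate level. PEX26, a peroxisome protein, had 62.7, 63.0, 63.0 and 63.3 CPM, a CV of 0.364%. PIKFYVE, a lipid kinase of endosomes, had 59.6, 59.5, 59.8 and 59.1 CPM, and the mitochondrial assembly factor UQCC2 29.8, 29.9, 30.0 and 29.5 CPM. GLTP, JAK1, PTPN9, THOC5, NSUN4, RPAIN and the unmatched AC097460.1 completed the 10, with CVs of up to 1.08%. They were picked for a low CV among many genes, so these CVs are a description. Of 18 genes often used as references, none had a 2-fold range, and their median CV was 9.24%. For all genes with at least 1 CPM on average and 10 counts in every sample, these were 9.04% and 13.1%. None of 18 is thus close to the share over all genes. TBP, GAPDH, PPIA and GUSB varied least, with CVs of 3.62, 4.53, 4.99 and 4.59% in that order, while TFRC (203, 314, 189 and 179.6 CPM) was among those that varied most. POLR2A, VCL, ACTB, HPRT1 and RPLP0 had CVs of 10.1, 9.45, 11.8, 10.7 and 10.1%. Per kb, GAPDH was the highest of these.

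Gene lists differed between samples to unequal degrees. The range between the highest and the lowest sample of a list's mean log2 CPM had a median of 0.36 over the 35 gene lists. The mean log2 CPM (prior count 2) of the detected sarcomere and muscle genes was 2.11, 1.84, 2.47 and 2.54 in replicates 1 to 4, so replicate 2 was lowest and replicates 3 and 4 highest. Of its 31 genes with at least 1 CPM and 10 counts in every sample, 16 had a 2-fold range, where 9.04% of all such genes did. Of the same genes 21 were lowest in replicate 2 and 15 highest in replicate 4, where the shares over all genes were 28.4% and 25.5%. MYL1, the alkali light chain of fast fibers, had 12.5, 7.05, 17.0 and 21.0 CPM and MYL4, the embryonic one, 7.36, 4.24, 9.49 and 12.4. MYBPH, a myosin-binding protein, had 2.48, 1.67, 3.45 and 6.82 CPM, and MYH7, the slow myosin, 0.623, 0.891, 1.23 and 2.47 CPM. All 4 of these genes were highest in replicate 4. The mean of the detected fusion targets was 5.46, 4.91, 5.52 and 5.18, again lowest in replicate 2. Without replicate 2 the range between samples was 0.43 instead of 0.70 for the muscle list and 0.33 instead of 0.60 for the fusion targets. On the log2 scale of summed CPM, where the most abundant genes weigh most, the ranges over 4 samples were 0.36 and 0.46.

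S phase genes were highest in replicate 2, by a range of 0.39, close to the median of the lists. Their mean was 6.74, 6.94, 6.62 and 6.55, and 25 of 30 were highest in replicate 2, whose share over all genes was 27.3%, while 20 were lowest in replicate 4, against 22.6% of all genes. MCM2, a subunit of the replicative helicase, had 253, 262, 196 and 174 CPM, MCM5 174, 194, 126 and 105 CPM and PCNA, the sliding clamp, 149, 179, 138 and 127 CPM. Mitotic genes had means of 7.25, 7.28, 7.35 and 7.46, and 22 of 30 were highest in replicate 4, whose share over all genes was 25.5%. Their range was only 0.20, under the median of the lists, or 0.09 without replicate 4. CENPE had 118, 132, 148 and 164 CPM and HMMR 108, 111, 138 and 147 CPM. None of the mitotic genes and 1 of the S phase genes had a 2-fold range. Over all genes with enough counts 9.04% did, a share that would also give few in lists of 30. The S phase gene was CDT1, which licenses replication origins, with 54.9, 39.6, 25.5 and 23.5 CPM.

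Immediate early genes, whose RNA can rise within minutes of a stimulus, varied widely. Of 21 with enough counts, 10 had a 2-fold range, where 9.04% of all such genes did. The mean of the 22 detected was 4.64, 4.05, 4.57 and 4.04, with replicates 1 and 3 above replicates 2 and 4. The range was 0.60, or 0.52 without replicate 1. EGR1 had 444, 149.9, 459 and 106 CPM, EGR2 5.15, 2.42, 10.1 and 2.33 CPM, FOS 15.8, 3.21, 17.2 and 7.68 CPM and FOSL1 29.1, 50.5, 19.9 and 20.8 CPM. For EGR1, replicates 1 and 3 lay far above replicates 2 and 4, and FOSL1 was highest in replicate 2 instead. JUN, the highest of the list per kb with 118 CPM per kb, had 521, 378, 405 and 401 CPM, with replicate 1 above the others. CYR61, a matricellular protein, had 382, 422, 384 and 372 CPM, a CV of 5.67%. EGR3 was the lowest of the list per kb with 0.0803. Cholesterol genes had a mean of 5.90, 5.38, 5.56 and 5.73, and 18 of 23 were highest in replicate 1 and 16 lowest in replicate 2, where the shares over all genes were 26.9% and 28.4%. Its range of 0.52 was 0.34 without replicate 2 and 0.35 without replicate 1. Heat shock genes had a mean of 6.94, 7.05, 6.64 and 6.84, lowest in replicate 3, and the range of 0.41 became 0.21 without it and 0.30 without replicate 2. In replicate 3, 12 of 23 genes of the NF-κB pathway were lowest as well, against 21.2% of all genes.

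**Figure D4:**
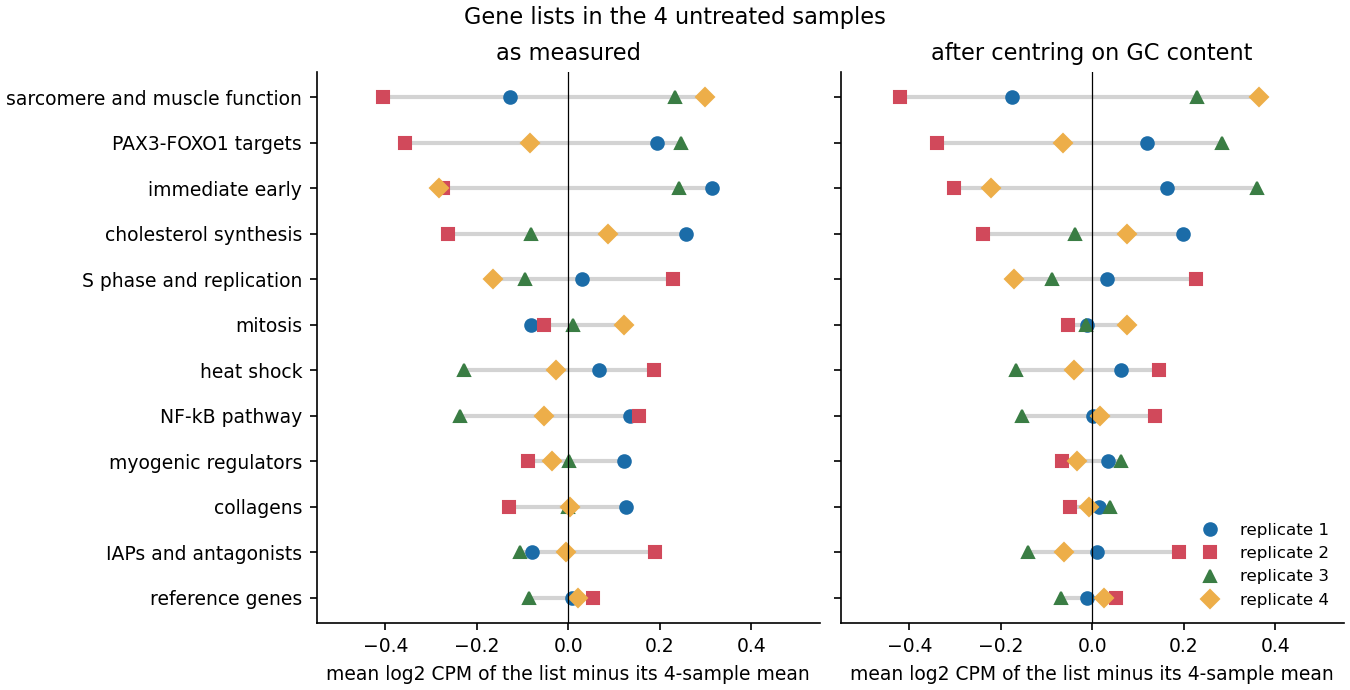
Mean log2 CPM of 12 gene lists in each untreated sample minus the mean over the 4 samples. The left side shows all detected genes of each list as measured. The right side shows only those of at least 1 CPM with a known GC content, after each sample was centred within 10 bins of GC content. Grey bars join the lowest and highest sample. Muscle genes and fusion targets are lowest in replicate 2 on both sides, whereas the collagens draw together on the right.

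For each sample, the genes in which it stood farthest from the others were picked, so every sample has some. Many lay at only a few CPM, and their values are a description. In replicate 1, JUNB (32.7, 13.8, 12.7 and 11.0 CPM) and CEBPD (4.44, 1.32, 1.83 and 1.81 CPM), transcription factors of rapid responses, stood above the others, with TNK2-AS1, HLA-J and AC016888.1. Farthest below the others there were RN7SL2, RN7SL3, RN7SL4P and RN7SL5P, copies of the 7SL RNA of the signal recognition particle, and AD000090.1. In replicate 2, BIRC3, AKAP5 (1.25, 2.96, 1.36 and 0.889 CPM), ITGB2-AS1 and AL365440.1 stood above. DRAXIN (1.31, 0.232, 1.31 and 2.96 CPM), SMIM14 (2.54, 0.677, 4.94 and 5.37 CPM), AL035250.2 and the lncRNA OLMALINC (50.8, 12.6, 46.1 and 44.8 CPM) stood below.

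In replicate 3, FOSB (1.17, 0.374, 2.75 and 0.388 CPM), LUM (1.87, 1.23, 4.99 and 1.99 CPM), FILIP1 (0.896, 0.641, 2.79 and 1.03 CPM), ZNF831 (0.935, 0.534, 2.21 and 0.841 CPM) and AC131392.2 stood above, and S1PR5, MIR4737, AL589765.4 and AC110926.1 below. In replicate 4, the growth factor gene FGF5 (0.623, 0.392, 0.465 and 2.603 CPM), ABLIM3 (0.818, 1.02, 1.44 and 3.78 CPM), DRAXIN and STBD1, which binds glycogen (2.57, 1.21, 1.08 and 6.27 CPM), stood above. The readthrough gene FAM47E-STBD1 overlaps STBD1, and their reads cannot be told apart. HES1, a target of Notch signaling (15.4, 7.32, 18.3 and 2.89 CPM), SGPP2 (1.22, 2.94, 2.06 and 0.453 CPM), ADAM1A, AC063976.2 and AC067750.1 stood below. Among the 15 genes with the widest range were also the muscle genes SMYD1 (0.987, 0.606, 2.56 and 4.51 CPM), a methyltransferase of the sarcomere, and HJV (2.21, 0.713, 4.25 and 5.38 CPM), a co-receptor of muscle and liver, both lowest in replicate 2 and highest in replicate 4. FRG2 (1.62, 0.463, 5.09 and 4.59 CPM) and FRG2B (2.19, 0.784, 7.22 and 6.13 CPM), near-identical genes at the ends of chromosomes 4 and 10, were lowest in replicate 2 and highest in replicate 3, and as paralogs they share reads. LPIN3 (3.82, 0.748, 6.02 and 1.88 CPM) and the short or unmatched MIR4444-2 (20.03-fold), MIR636, AC008878.4 and AC016888.1 were on that list too.

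Base composition and some abundant RNAs moved with the samples. Genes with a mean of at least 10 CPM were split into 10 bins by the GC content of the exons of their longest transcript. In the bin of highest GC content (median 63.0%) the median deviation from the mean of the 4 samples was 0.38, 0.10, -0.25 and -0.22 on the log2 scale in replicates 1 to 4. In the lowest bin (median 36.6%) it was -0.17, 0.02, 0.06 and 0.10. Replicate 1 thus rose with GC content, while replicates 3 and 4 fell. For centring, 10 such bins were made over genes of at least 1 CPM. Once each sample was centred within them, the median CV of genes with a known GC content was 10.7% instead of 12.7%. Of these 14120 genes, 817 instead of 1154 had a 2-fold range. The range of the sarcomere and muscle list among its genes of at least 1 CPM was 0.71 before and 0.79 after centring, that of S phase 0.39 and 0.40, and that of the collagens 0.33 and 0.09. The part of base composition in the level of any single gene was not tested.

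**Figure D5:**
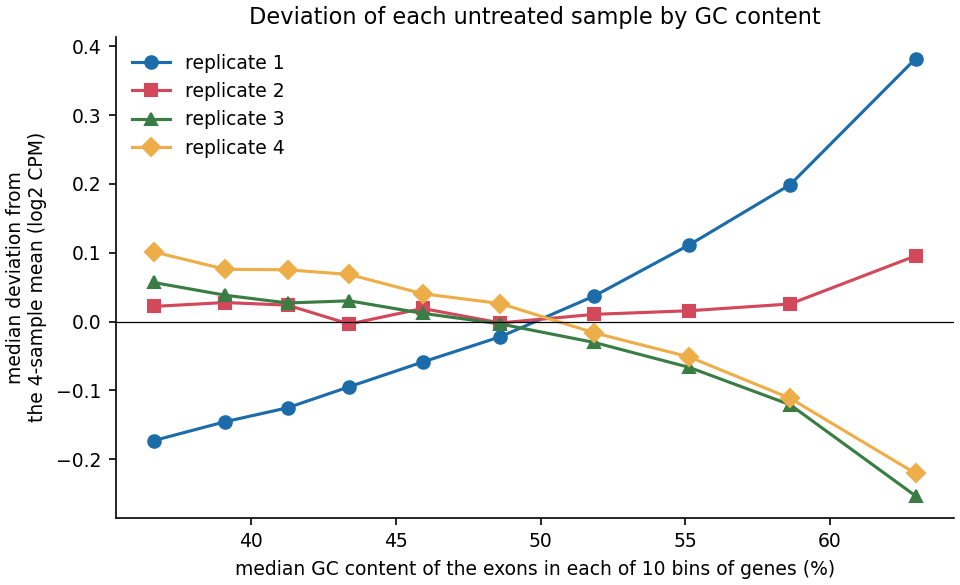
Median deviation of each untreated sample from the mean of the 4 samples (log2 CPM) in 10 bins of genes by GC content. The bins hold genes with a mean of at least 10 CPM. The horizontal axis gives the median GC content of the exons of their longest transcripts in percent. Replicate 1 climbs from -0.17 to 0.38, replicates 3 and 4 decline, and replicate 2 stays within 0.10 of 0.

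FP671120.3, a locus that holds ribosomal RNA repeats, had 184, 292, 1139 and 703 CPM in replicates 1 to 4. FP236383.2, another one, had 184, 292, 1138 and 703 CPM, nearly the same in each sample, and such copies cannot be told apart by their reads. The 7SL RNA gene RN7SL2 had 14.9, 37.4, 47.5 and 85.2 CPM, lowest in replicate 1 and highest in replicate 4. These RNAs have no poly(A) tail, and the share of counts at the ribosomal loci, 0.0703 to 0.441%, was small in all 4 samples. MALAT1, a lncRNA kept in the nucleus, had 31.5, 36.4, 62.9 and 31.6 CPM. NEAT1, another one, had 105, 106, 185 and 54.9 CPM. Both were highest in replicate 3, which also had the largest share of mitochondrial transcripts. The part of these differences in the levels of other genes was not tested.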

How the data were processed

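RNA of RH30 cells was sequenced from poly(A)-selected TruSeq stranded libraries. Per the labels and the submitters' processing notes, the authors aligned reads with STAR 2.6.1d to GRCh38 and deposited raw counts per gene (Ensembl 95, union of exons). Use of strand and of reads on several genes is not given in the sources used here. CPM were computed from the counts with TMM factors (edgeR 4.0.16) over 23124 genes that passed filterByExpr (minimum count 10) in all 7 samples. Symbols of 37181 genes matched GENCODE 44, which gave position, type, exon length and GC content. Window medians used log2(CPM per kb + 0.0100). No test between groups was made, and Dixon's ratio was used to find values in which 1 sample stood apart. The members and the 35 gene lists were chosen with earlier results of these data known. Genes were named if they belonged to a list, lay within 2 Mb of CDK4, were among the 15 highest nuclear protein-coding or the 10 highest other genes per kb, had one of the 15 widest ranges or 10 smallest CVs, or were among the 5 in which a sample stood farthest above or below the rest. LPAR5, MALAT1, NEAT1, FAM47E-STBD1 and the ribosomal loci were named after their values were seen. Some genes that met these rules are not reported here. The scripts were tested on simulated data. Other scalings (library totals, DESeq2 1.42.0 size factors, TMM over the untreated samples), filters, window sizes and leaving out each replicate were tried, and centring on GC content and the length of the main transcript were added after seeing the data. The study calls the replicates of its RNAseq heat map biological. Nothing says that the samples came from separate passages, so how much of their spread is technical is not known.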

Additional observations from a re-analysis of the deposited data

Results flagged for a closer look

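One of the 4 samples lay apart from the other three in 26 of the 415 values examined, the genes named here and the measures per library. The measure was the gap between the outermost sample and its neighbor as a share of the whole range (Dixon's ratio on the CPM scale), and values above Dixon's critical value are given. Chance alone passes about 1 in 20 such values, which here would be 20.8, so the count was near that share. Some of these genes had been chosen because 1 sample stood apart.

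Replicate 1 was the high sample in 11 of them. These were the markers MYOD1 (ratio 0.899) and FGFR4 (0.872), the receptors FGFR1 (0.862), ERBB2 (0.893) and DDR1 (0.859), the inhibitor CDKN2A (0.902), MBD6 of the CDK4 segment (0.970), JUNB (0.870), CEBPD (0.838), HLA-J (0.948) and the leukocyte gene PTPRC (0.889). AD000090.1 was low in replicate 1 (0.886). Genes of high GC content tended to be higher in replicate 1, and these ratios were taken without centring on GC content.

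Replicate 2 was the low sample for IGF2R (0.918), BCL2L1 (0.835), OLIG2 (0.913) and OLMALINC (0.843), and the high sample for TSFM (0.912), ITGB2-AS1 (0.900) and AL365440.1 (0.904). Replicate 3 was high for MALAT1 (0.843) and LPAR5 (0.902) and low for SHMT2 (0.984), whose 4 values of 2093, 2090.3, 1900.3 and 2093 CPM differed little. Replicate 4 was high for ACTC1 (0.915), VCL (0.958), FGF5 (0.895) and RIPK3 (0.849).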

How the results depend on the processing

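Of 152 values recomputed under other settings, 118 stayed within the limit set for them. The limit was a spread for most results and a ratio to the main count for counts of genes. Changes of direction were not examined. The 6 tumor markers stayed within 1 SD under all 42 of their settings. Leaving out 1 of 4 samples cannot move a mean by 1 SD, so those settings could not have shown otherwise. Single markers were not recomputed after centring on GC content. The share of the 100 highest genes was 15.7% without mitochondrial transcripts. The median CV was 11.2% from 10 CPM upward and 20.2% without a filter on low levels. It was 10.7% after centring on GC content (genes with a known value only) and between 11.4% and 13.6% when 1 replicate was left out. Genes with a 2-fold range numbered 446 from 10 CPM upward, 817 after centring on GC content (genes with a known value only), and between 879 and 1159 with 1 replicate left out, fewest without replicate 2, where a range is taken over fewer samples. The window median at CDK4 was 6.85 over 9 genes, 5.13 over 25 genes, 7.44 for CPM without length and 5.78 with the main transcript's length. Over 25 genes 9 windows were higher, all within 2 Mb, and no window was higher in those other 3 settings. CpG-rich promoters made up 86.8% of genes from 10 CPM upward and 67.8% at a ratio of 0.75. The median range of the gene lists, 0.36 in the main setting, was 0.29 for summed CPM and between 0.20 and 0.32 with 1 replicate left out. After centring on GC content it was 0.24. That value used only genes of at least 1 CPM with a known GC content, so the set of genes changed as well. Other scaling factors moved none of the results for which they were tried beyond the limit set. Where no reason is given, the cause was not tested.

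No paired analysis was possible because the description covers 1 group and makes no test between groups. Genes near 3 counts cannot be ordered at this depth. Detected genes numbered 20870 at a minimum of 10 counts, 28034 at 1 count and 24261 when all samples were thinned to the smallest total.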
